A study of Mus musculus with 4 samples.

Results

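In E9.5 mouse hearts without SMYD1, 901 of the 25745 chromatin sites that the authors listed as more open than in wild-type (WT) hearts were both strong and far from any gene start. These 901 sites, called strong far peaks below, are the subject here. They were selected on 2 values of the *Smyd1-KO* list itself: the peak's score, which had to be at least 200, and its position. The nearer edge of the peak had to lie more than 10 kb from every transcription start site (TSS) of the GENCODE M21 annotation, and the peak could overlap no coding sequence or untranslated region of a protein-coding gene. Every peak in the list had the same width, as the coordinates below show. Position alone left 7850 of the 25745 gained peaks, 183 of which were dropped because they touched coding or untranslated sequence. Of the 7667 kept, 901 (11.8%) reached the score and 6766 did not. The 6766 are called weaker far peaks and serve as the main comparison. In the list of WT-enriched peaks, which holds 106 peaks, 49 were as far from a TSS and 2 reached a score of 200, but 0 met the whole rule.

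The assay was ATAC-seq, in which the Tn5 transposase cuts DNA that is not wrapped around nucleosomes, so that many cuts at a site mark open chromatin. The groups were WT hearts and *Smyd1-KO* hearts at embryonic day 9.5. *Smyd1-KO* embryos carry a conventional null allele of *Smyd1*, a histone methyltransferase gene of heart and skeletal muscle, so the gene is lost in every cell and not in cardiomyocytes only. There were 4 libraries, 2 per genotype, and each was made from 4 pooled hearts and 40000 viable cells. Hearts of either sex were frozen one by one and then thawed, pooled and dissociated, and cells were not sorted. A peak therefore sums over cardiomyocytes, endocardium, blood and other cells, and a larger number of cells of one type cannot be told apart from more open chromatin per cell. The lists were made by the authors from a combined set of tags per genotype, taken here as both libraries together, with a cutoff of 2-fold between genotypes. No peak therefore has a replicate error. The lists do not give the depth of each library, which per the methods was planned at 100 M reads. The score is the total of tags, or aligned reads, that the peak caller gave the peak in the combined *Smyd1-KO* data. It takes values in steps of 0.5, so it is not a plain count of reads, and how it was scaled is not given in the sources used here. It is printed below in tags. Tests below compare strong with weaker far peaks by sequence and by place in introns or between genes. Both groups met the same rule on position, which used distances to TSSs, so such distances are given as a description and no test of them is used. They cover counting error over peaks, which are not replicates of a genotype.

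Open chromatin far from promoters usually marks enhancers, where transcription factors bind and act on a gene at a distance, or sites of CTCF, a zinc-finger protein that holds chromatin loops and separates neighbouring domains. In the early heart, GATA factors, MEF2 factors and SRF act on muscle genes, TEAD factors carry the output of Hippo signalling, and MEIS, T-box, NKX2 and HAND factors act in progenitors and chambers. Factors of the SP and KLF families bind GC-rich strings that are common at promoters.

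The sequences below show what a match looked like in strong far peaks. Each is 30 bases, read 5′ to 3′ on the strand of the match from the NCBI GRCm38 genome, which has the same sequence as mm10. The bases in capitals are the match. Coordinates are on mm10, and each peak is named by the gene of its nearest protein-coding TSS. The first set holds 5 of the 6 strong far peaks of highest score whose match to the 14-letter CTCF consensus was free of mismatches. The search allowed at most 1 mismatch.
Phlda3 CTCF (chr1:135753080-135753109, minus strand, 710.5 tags): ctgcatggCCAGCAGAGGGCAGcctgtctc
Tef CTCF (chr15:81831549-81831578, plus strand, 589 tags): ccattccaCCAGTAGGTGGCGGgcgattca
Tex44 CTCF (chr1:86440664-86440693, plus strand, 499 tags): ataactgtCCAGCAGAGGGCGCtactcccc
Fam76a CTCF (chr4:132945689-132945718, plus strand, 365.5 tags): gaacatgaCCACCAGGTGGCACtgtagtcc
Nxph3 CTCF (chr11:95533935-95533964, plus strand, 324 tags): gcctctggCCAGCAGGGGGCGCtgcgatgc

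For the 10-letter MEF2 consensus, 3 of the 4 strong far peaks of highest score with a match are given next. They show the AT-rich core that MEF2 factors bind. The peaks named for *Foxp1* and *Akap12* lay in introns of those genes.
Mtss1 MEF2 (chr15:59197910-59197939, plus strand, 505.5 tags): ggactctgggCTATTTATAAcctgctgctg
Foxp1 MEF2 (chr6:99200737-99200766, plus strand, 452.5 tags): agagaccactCTATTTTTAGgcctatgacc
Akap12 MEF2 (chr10:4334504-4334533, plus strand, 405.5 tags): cggggccgtcCTATAATTAGccagagaagc

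For TEAD the string searched was ACATTCC on either strand. The leading peak of this set lay in an intron of *Vgll4*, which encodes a cofactor of TEAD factors.
Vgll4 TEAD (chr6:114889162-114889191, minus strand, 661 tags): gcccgcgtcctcACATTCCgcgcatgccaa
Ddr1 TEAD (chr17:35720490-35720519, plus strand, 563 tags): ccaaattctctACATTCCagggagggagtt
Zfp36l1 TEAD (chr12:79859906-79859935, minus strand, 507 tags): acaacatcaaacACATTCCaggccttatct
Man1c1 TEAD (chr4:134663211-134663240, minus strand, 491.5 tags): tgcctctgagacACATTCCatggagtctct

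For GATA the string searched was AGATAA on either strand. The peaks named for *Plxna4* and *Tmem135* lay in introns of those genes, and the others were intergenic.
Plxna4 GATA (chr6:32479303-32479332, plus strand, 753 tags): ggctgtcagcagAGATAAatttagcaccaa
Lrfn3 GATA (chr7:30373710-30373739, plus strand, 613.5 tags): gtcttgcttatcAGATAAgtgtcggctccc
Defb42 GATA (chr14:63067800-63067829, minus strand, 589.5 tags): gtgataagggccAGATAAtggtagccaaac
Tmem135 GATA (chr7:89367767-89367796, plus strand, 584.5 tags): ctccagccctacAGATAAgcttctagttga

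GATA and TEAD strings were found together in 9 strong far peaks. In the 3 such peaks of highest score, namely those of *Ddr1*, *Zfp36l1* and *Man1c1*, the TEAD string is the one printed above, and the GATA string is given here. For the fourth, upstream of *Prrc2b*, both are given. The *Zfp36l1* peak holds both strings side by side on opposite strands.
Ddr1 GATA (chr17:35720506-35720535, minus strand, 563 tags): agctggagactgAGATAActccctccctgg
Zfp36l1 GATA (chr12:79859894-79859923, plus strand, 507 tags): ggctccctgattAGATAAggcctggaatgt
Man1c1 GATA (chr4:134663281-134663310, plus strand, 491.5 tags): tgtctaaccttgAGATAAggttccccacac
Prrc2b GATA (chr2:32128160-32128189, plus strand, 286.5 tags): ggcttcccgctgAGATAAcccgggtttccc
Prrc2b TEAD (chr2:32128254-32128283, minus strand, 286.5 tags): ttatcaggagacACATTCCaacccacgctc

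The scores of strong far peaks ranged from 200 to 4352.5 pooled tags, with a median of 270.5 and quartiles of 228.5 and 354.5. Most lay near the threshold: 551 (61.2%) scored under 300 and 85 scored over 500. The score fell off smoothly through the threshold, as the plot of scores shows. The peaks just inside were one named for *A730049H05Rik* at 200.5 tags and those named for *Cdh18* and *Hps6* at 200. Just outside were peaks named for *Fars2*, *Zmiz1* and *Ank*, each at 199.5. Their distances to the protein-coding TSS they are named for, on both sides of the threshold, ran from 11094 bp (*Hps6*) to 278357 bp (*Cdh18*). These scores chose the peaks and are given as a description only. Strong peaks within 10 kb of a TSS, of which there were 11208, had a higher median score of 446.

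**Figure D1:**
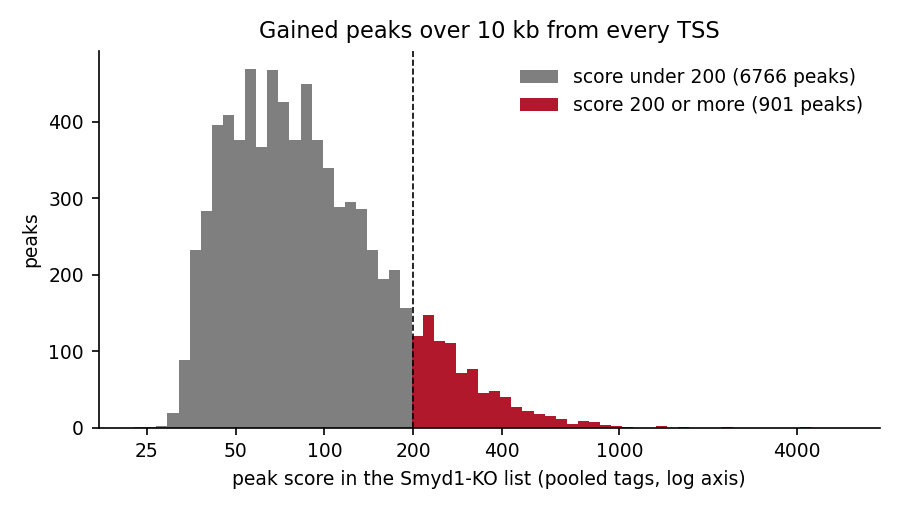
Scores of the 7667 gained peaks more than 10 kb from every TSS (x axis, pooled tags on a log axis; y axis, number of peaks), with the threshold of 200 as a dashed line. The counts fall without a gap at the threshold, above which lie the 901 strong far peaks (red).

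By score, the leading strong far peak lay 11161 bp upstream of *Hic2*, which encodes a transcriptional repressor, at chr16:17222263-17222411. It had 4352.5 tags, and 21.2% of its 32-base words recurred elsewhere in the genome. The second, at 2274 tags, lay in an intron of *Tshz2* (chr2:169773668-169773816), which encodes a zinc-finger homeobox protein. Its GC content of 36.2% was the lowest of all 901. Peaks whose nearest protein-coding TSS was that of *Zfp395* (1598.5 tags), *Nova1* (1393.5), *Wnt7b* (1374.5), *Ccne1* (1080.5) and *Ptma* (1004) followed. Those of *Nova1* and *Wnt7b* lay 318141 and 52071 bp from that TSS, each with a noncoding TSS closer by. The remaining peaks among the first 10 were 95944 bp from the TSS of *Rab39b* (974), in an intron of *Arid1b* (952) and near the immediate-early gene *Fos* (893). The *Rab39b* and *Arid1b* peaks also had a noncoding TSS closer by. Among these 10 peaks, 7 lay in a CpG-rich window, 6 held an SP/KLF string, and 0 held a CTCF, MEF2, GATA or TEAD match.

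Of the 901 strong far peaks, 487 (54.1%) were intergenic, 407 (45.2%) lay in introns and 7 overlapped an exon that was neither coding nor untranslated sequence of a protein-coding gene. Among peaks that were intronic or intergenic, 45.5% of strong and 47.0% of weaker far peaks were intronic, an odds ratio of 0.942 (95% interval 0.817 to 1.09, Fisher's exact test, two-sided, adjusted p = 0.412 over 3 shares, the others being CpG-rich windows and peaks within 100 kb of a protein-coding TSS). At a score threshold of 400 that odds ratio was 0.622 (exact test, adjusted p = 0.00492), and at 100 it was 1.10 (adjusted p = 0.0393). By distance, the gap to the closest TSS had a median of 20494 bp, against 26472 bp for weaker far peaks, and for protein-coding TSSs the medians were 30985 and 48084 bp. A protein-coding TSS lay within 100 kb of 759 strong far peaks (84.2%, 95% exact interval 81.7 to 86.6) and of 68.9% of weaker far peaks, against 88.8% of all gained peaks. Only 24 strong far peaks (2.66%) were more than 100 kb from every TSS.

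The 4 motifs of interest marked 334 of the 901 strong far peaks (37.1%), and 2533 weaker far peaks (37.4%) held at least 1 of them. GATA was the most frequent, with a match in 152 strong far peaks (16.9%, 95% exact interval 14.5 to 19.5). CTCF followed with 103 (11.4%, 9.43 to 13.7), TEAD with 67 (7.44%, 5.81 to 9.35) and MEF2 with 31 (3.44%, 2.35 to 4.85). Over all 25745 gained peaks the shares were 8.87% for GATA, 10.7% for CTCF, 3.84% for TEAD and 1.76% for MEF2. The share of CTCF in strong far peaks was thus near that of the whole list, while those of GATA, TEAD and MEF2 were above it.

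Between strong and weaker far peaks, none of these 4 shares differed past the threshold of 0.05 by Fisher's exact test (two-sided, adjusted over 15 motifs). The GATA share was 16.9% against 16.6% (odds ratio 1.02, 95% interval 0.839 to 1.23, exact test, adjusted p = 0.910), and the MEF2 share 3.44% against 3.19% (1.08, 0.712 to 1.59, adjusted p = 0.793). For TEAD the shares were 7.44% and 6.40% (1.17, 0.885 to 1.54, exact test, adjusted p = 0.341). CTCF was lower in strong far peaks, at 11.4% against 13.8% (0.805, 0.642 to 1.002), with an exact p = 0.0490 before and 0.129 after adjustment. At a score threshold of 400 the CTCF odds ratio was 0.420 (exact test, adjusted p = 0.0178), whereas at 100 it was 1.35 (adjusted p = 5.97e-05), so the direction turned with the threshold. Within 40 to 60% GC, GATA was more frequent in strong far peaks (1.37, exact test, adjusted p = 0.0144). With 1 mismatch allowed, MEF2 was less frequent in them (0.674, exact test, adjusted p = 0.00486).

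All 4 motifs, as searched, had higher shares in the peaks than beside them, but with 1 mismatch allowed MEF2 had the lower share in the peaks (9.66% against 20.3%). In windows of the same width centred 1 kb to either side of the strong far peaks, the CTCF consensus was found in 0.721%, MEF2 in 2.11%, GATA in 6.99% and TEAD in 1.89%. The peaks' shares were 15.8 times that level for CTCF, 3.94 times for TEAD, 2.42 times for GATA and 1.63 times for MEF2. A second reference was the genome cut into adjoining windows of peak width, of which 10891070 met the position rule. Of these windows 0.290% held CTCF, 3.74% MEF2, 10.7% GATA and 2.01% TEAD. When these windows were weighted to the GC content of the strong far peaks, the shares were 0.749%, 0.260%, 3.27% and 1.499%. The MEF2 share in strong far peaks was thus below that of unweighted windows but 13.2 times that of GC-weighted windows. Strings of the same letters read backwards, a check on base composition, were found in 0.111% of strong far peaks for CTCF and for MEF2, 3.55% for GATA and 0.888% for TEAD. Strong peaks within 10 kb of a TSS held CTCF in 4.94%, GATA in 2.32%, TEAD in 1.58% and MEF2 in 0.660%. These reference values are descriptions and were not tested.

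**Figure D2:**
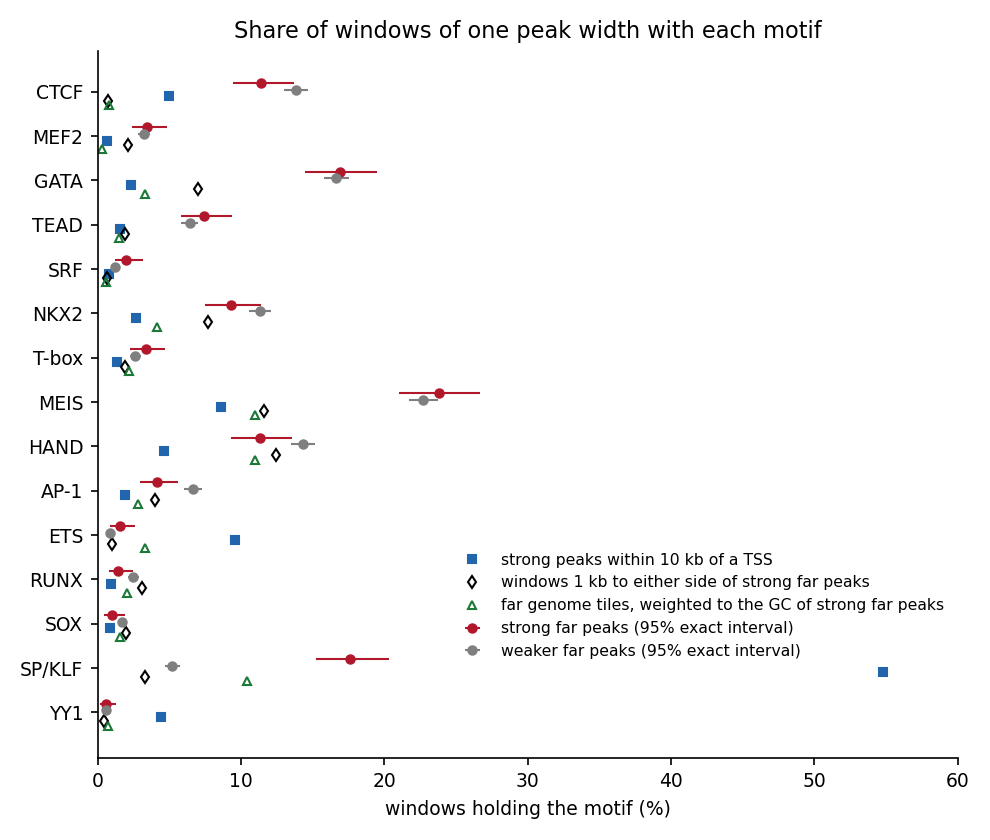
Percentage of windows (x axis) that hold each of 15 motifs (y axis) in strong far peaks and weaker far peaks, with 95% exact intervals, and, without intervals, in strong peaks within 10 kb of a TSS, in windows 1 kb beside the strong far peaks and in GC-weighted far windows. Strong and weaker far peaks lie close together for GATA (16.9% and 16.6%) and far apart for SP/KLF (17.6% and 5.17%).

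Of the 11 other motifs, 2 differed between strong and weaker far peaks after adjustment (Fisher's exact test, two-sided). The SP/KLF string GGGCGG was found in 159 strong far peaks (17.6%, 15.2 to 20.3) against 5.17% of weaker ones, an odds ratio of 3.93 (3.19 to 4.83, exact test, adjusted p = 2.27e-33). The same letters read backwards were found in 16.4% of strong and 5.14% of weaker far peaks. Since GGGCGGG holds both strings, these shares cannot separate SP/KLF sites from base composition. The SP/KLF share over all gained peaks was 29.1%. In far windows weighted to the GC content of the strong far peaks it was 10.4%, and in windows beside the peaks 3.27%. The AP-1 string TGANTCA was less frequent, at 4.11% against 6.62% (0.604, 0.417 to 0.853, exact test, adjusted p = 0.0206). Its share over all gained peaks was 4.09%, and at a score threshold of 400 the AP-1 difference did not pass the test (0.472, exact test, adjusted p = 0.251). The MEIS string TGACAG was the most frequent of the 15, in 214 strong far peaks (23.8%) against 22.7% of weaker far peaks (exact test, adjusted p = 0.624), 11.6% of windows beside the peaks and 3862 of the 25745 gained peaks. It is 6 letters long, and the same letters backwards were found in 10.5% of strong far peaks. TGACAGT holds both strings, so this too is not a clean check on base composition. SRF, whose 10-letter CArG box is bound at muscle and immediate-early genes, was found in 18 strong far peaks (2.0% against 1.17%, exact test, adjusted p = 0.129). The HAND string CATCTG was found in 102 (11.3% against 14.3%, exact test, adjusted p = 0.0801), the NKX2 string TNAAGTG in 84 (9.32% against 11.3%) and the T-box string GGTGTGA in 30 (3.33% against 2.59%). In windows beside the strong far peaks the shares were 12.4% for HAND, 7.66% for NKX2, 1.89% for T-box and 4.0% for AP-1. The T-box letters backwards were found in 4.11% of strong far peaks. The strings for ETS (CCGGAAG), RUNX (TGTGGTT), SOX (ACAATGG) and YY1 (ATGGCGG) each had a match in at most 14 strong far peaks. Which of these motifs passed depended on the rule for peaks. HAND was less frequent in strong far peaks past the threshold in 5 of 8 alternative choices of peaks, with odds ratios of 0.450 to 0.802, and NKX2 in 3 of 8. ETS and SRF were more frequent past the threshold in 2 of 8 each. RUNX and SOX were less frequent and YY1 more frequent past the threshold in 1 of 8 each. In 242 strong far peaks (26.9%) none of the 15 motifs had a match. Matches of different motifs rarely overlapped, most often those of HAND and MEIS, in 7 peaks.

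Pairs of the 4 motifs were few. Of the strong far peaks, 17 held 2 of them and 1 held 3, a peak of 238 tags in an intron of *Ino80d* with MEF2, GATA and TEAD strings. GATA and TEAD shared 9 peaks, CTCF and GATA 4, MEF2 and GATA 3, MEF2 and TEAD 2, and CTCF shared 1 each with MEF2 and TEAD. Of the 67 peaks with TEAD, 13.4% (95% exact interval 6.33 to 24.0) held GATA, close to the 16.9% of all strong far peaks. Of the 103 peaks with CTCF, 3.88% (1.07 to 9.65) held GATA, and that interval lies below 16.9%. In 17 peaks GATA matched at least 2 times. The *Mtss1* peak (505.5 tags), printed above for its MEF2 string, held GATA and MEIS strings too.

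The peaks of each motif were compared by place and score, with no test. Those with MEF2 were mostly intronic (22 of 31, 71.0%, 52.0 to 85.8), and those with CTCF mostly intergenic (66 of 103, 64.1%, 54.0 to 73.3). Their scores were similar, with medians of 253 tags for MEF2, 250 for CTCF, 262.25 for GATA and 252.5 for TEAD, against 278 for the 567 peaks with none of the 4. The highest score was 710.5 for a CTCF peak, near the p53 target *Phlda3*, and 753 for a GATA peak, in *Plxna4*. A CTCF match has a direction, and CTCF sites that hold a loop usually point towards each other. The best match lay on the plus strand in 56 peaks and on the minus strand in 47. Of 20 pairs of neighbouring matches within 2 Mb, 7 were convergent, 6 divergent and 7 in tandem, at a median gap of 480229 bp. Only strong far peaks were paired, although 2756 gained peaks held a match and sites open in both genotypes were not used. Other CTCF sites can thus lie between the matches of a pair, and the counts cannot show loops.

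Within the peak, CTCF matches lay more often on one side of the centre. The shares of TEAD, GATA and SP/KLF matches near the centre were above the share of positions there. By distance to the centre, CTCF and GATA matches had the same median of 30.5 bp, and TEAD matches 28 bp. Within 25 bp of the peak centre were 33 of 71 TEAD matches (46.5%, against 35.7% of possible positions) and 70 of 169 GATA matches (41.4% against 34.7%), but 39 of 105 CTCF matches (37.1% against 36.8%). The MEF2 share there was below that of positions, at 10 of 33 matches (30.3% against 35.7%), as were those of MEIS (30.2% against 34.7%) and AP-1 (29.7% against 35.7%). For SP/KLF it was above, at 87 of 224 matches (38.8% against 34.7%). These shares were not tested. CTCF matches lay to the right of the centre, at higher coordinates, in 71 of 105 cases (67.6%, 95% exact interval 57.8 to 76.4), at a median of 25.5 bp. The same held for 31 of 56 matches on the plus strand (55.4%, 41.5 to 68.7) and 40 of 49 on the minus strand (81.6%, 68.0 to 91.2). In the weaker far peaks 74.5% of 953 CTCF matches were right of the centre, 67.7% on the plus strand and 81.2% on the minus strand. Matches on either strand of the genome were thus more often right than left of the centre in both groups, although the interval for the plus strand of strong far peaks included 50%. For GATA, 87 of 169 matches (51.5%, 43.7 to 59.2) were right of the centre, and for TEAD 44 of 71 (62.0%, 49.7 to 73.2). This split by side was looked at after the positions had been plotted, and the part that the placing of peaks by the caller has in it was not tested.

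**Figure D3:**
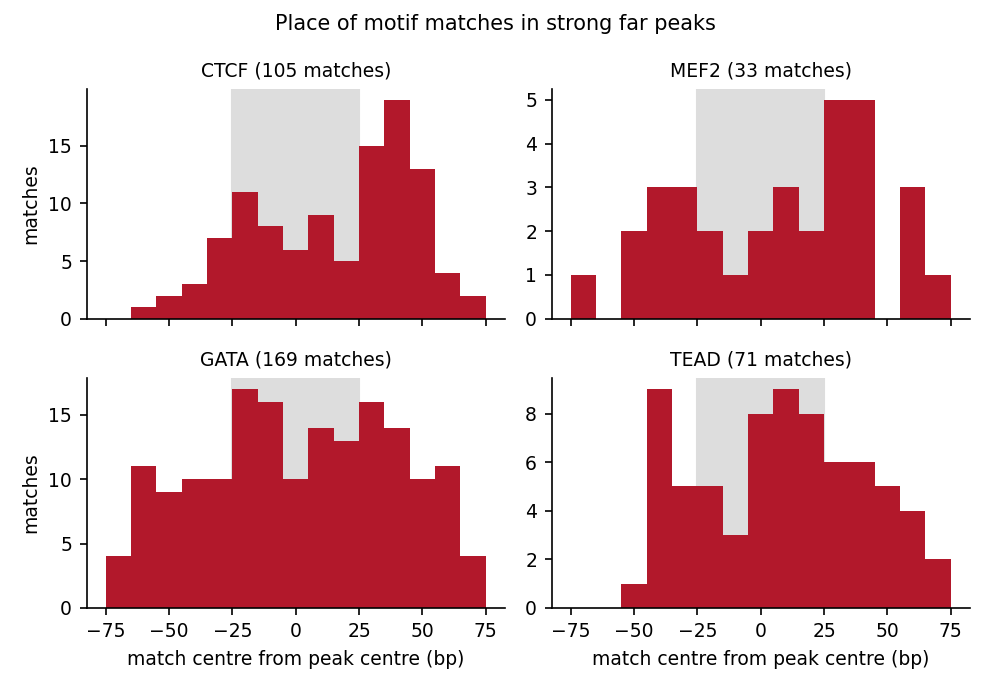
Distance of each motif match from the peak centre (x axis, bp, positive towards higher coordinates; y axis, matches in bins of 10 bp) in strong far peaks, with the 25 bp to either side of the centre shaded. CTCF matches pile up to the right, with 47 of 105 between 25 and 55 bp right of the centre and 12 at the same distance to the left.

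Strong far peaks were richer in GC than weaker ones, with a median of 56.4% against 51.0%, and more often CpG-rich. A CpG-rich window was one of 500 bp around the peak centre with at least 50% GC and at least 0.6 of the CpG expected from its bases, as in the CpG islands of many promoters. Such windows held 109 strong far peaks (12.1%, 10.0 to 14.4) and 48 weaker far peaks (0.709%), an odds ratio of 19.2 (95% interval 13.5 to 27.9, Fisher's exact test, two-sided, adjusted p = 1.04e-65). Of all gained peaks 36.8% lay in such windows, a larger share than of strong far peaks, and of the strong peaks within 10 kb of a TSS 76.7% did. The CpG-rich strong far peaks were mostly intergenic (90 of 109, 82.6%), scored a median of 372.5 tags against 262.5 for the other 792, and lay a median of 20973 bp from the nearest TSS. Among them 53.2% held SP/KLF and 15.6% CTCF, but 1.83% GATA, and 0 held MEF2 or TEAD, with an exact interval of up to 3.33% for each. Among the other 792 peaks the shares were 18.9% for GATA, 8.46% for TEAD and 3.91% for MEF2.

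**Figure D4:**
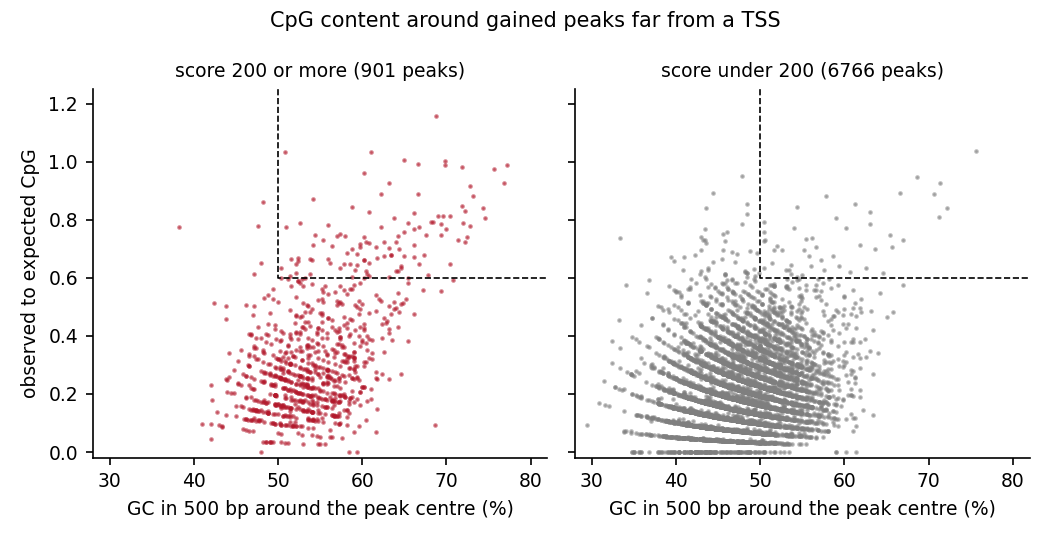
GC content (x axis, %) and observed to expected CpG (y axis) of the 500 bp around each strong far peak (left, 901 peaks) and weaker far peak (right, 6766 peaks), each point 1 peak. Dashed lines bound the CpG-rich corner, which holds 109 of the strong and 48 of the weaker far peaks.

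The strong far peaks were spread over all autosomes, at 0.191 per Mb on chromosome 13 to 0.647 on chromosome 11. The X chromosome held 0.111 per Mb and the Y chromosome 0, with 7 gained peaks of any kind. As a share of the gained peaks of the chromosome, strong far peaks made up 3.21% on the X chromosome, near the 3.50% of the whole list. The nearest other gained peak lay a median of 18126 bp away. Another gained peak lay within 10 kb of 274 strong far peaks (30.4%), another strong far peak lay within 1 kb of 43 (4.77%), and 60 (6.66%) had no other gained peak within 100 kb. The gene with the most was *Gse1*, with 6 strong far peaks within 100 kb of a TSS. In 34 peaks (3.77%, against 6.37% of weaker far peaks) more than 10% of the 32-base words recurred in the genome, and 0 held a word of the mitochondrial genome.

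Of 21951 protein-coding genes, 1872 (8.53%) had a strong far peak within 100 kb of a TSS. Of 273 genes on 9 lists of heart and related genes, 67 (24.5%, 95% exact interval 19.6 to 30.1) had one. For weaker far peaks the shares were 33.5% of all protein-coding genes and 54.6% of the 273. The lists were compiled with earlier results of these data known, and no test was made over them. The share was 14 of 44 cardiac transcription factor genes (31.8%), 12 of 32 genes of calcium handling, conduction and natriuretic peptides (37.5%) and 16 of 48 genes of heart morphogen and growth factor signalling (33.3%). It was 8 of 49 sarcomere and Z-disc genes (16.3%), 4 of 22 endothelial and endocardial markers (18.2%) and 6 of 32 genes of glycolysis and hypoxia (18.8%). Of 17 blood markers 7 (41.2%) had one, among them the neighbouring globin genes *Hba-a1*, *Hba-a2* and *Hba-x*. Of 18 epicardial and mesenchymal markers and of 14 foregut endoderm and neural crest markers, 0 had one, while 11 and 7 of them had a weaker far peak. Among all listed genes *Zfpm1* had 4 strong far peaks within 100 kb, *Gata5*, *Prdm16*, *Nppa* and *Nppb* had 3, and 8 others had 2. *Nppa* and *Nppb* are neighbouring genes and share their 3 peaks, so they are not separate cases.

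In 74 strong far peaks the nearest protein-coding TSS was that of a listed gene, 56 genes in all, at any distance and so also beyond 100 kb. GATA had a match in 17 of the 74 peaks (23.0%), CTCF in 6, TEAD in 5 and MEF2 in 4, 34 lay in introns, and 9 were CpG-rich. Over all 901 strong far peaks the shares were 16.9% for GATA, 11.4% for CTCF, 7.44% for TEAD, 3.44% for MEF2, 45.2% for introns and 12.1% for CpG-rich windows, and no difference from them was tested. Of the 30 of highest score, 28 are described by the role of the gene, with some of the others where a motif or a cluster is of interest, the latter chosen after their values were seen. Nearness does not show which gene a site acts on. In 46.6% of the 901 strong far peaks the closest TSS was noncoding, and such a TSS is pointed out below for some peaks only.

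Among transcription factor genes, *Prdm16*, needed in the compact ventricular wall, held a peak of 543.5 tags in an intron at chr4:154393484-154393632 with a MEIS string. It held others of 269.5 and 205.5 tags, the last with GATA. *Zfpm1*, which encodes the GATA cofactor FOG1, had an intronic peak with GATA (478 tags, chr8:122294282-122294430) and peaks of 385.5, 265.5 and 252.5 tags between 47769 and 51692 bp upstream. The upstream peaks lay in an intron of *Gm20388*, each with a noncoding TSS closer by. The *Myocd* peak (466.5 tags, chr11:65303902-65304050) lay 33913 bp upstream of the gene of the SRF coactivator myocardin. It held GATA and MEIS strings and had a noncoding TSS closer by. An intronic peak of *Foxp1* (452.5 tags) held a MEF2 string. The *Gata4* peak (424.5 tags, chr14:63255927-63256075) was intronic and CpG-rich and held none of the 15 motifs. The *Gata5* peaks had 417, 242 and 223 tags. The peak nearest to *Tbx18*, a gene of the sinus venosus, was 111934 bp away and had 399.5 tags and a GATA string. That 32711 bp from the TSS of *Hand2*, needed for the right ventricle, had 326.5 tags, a HAND string and a noncoding TSS closer by. The HAND string was found in 11.3% of strong far peaks and in 12.4% of windows beside them.

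Among genes of calcium handling and conduction, the *Atp2a2* peak (524 tags, chr5:122520841-122520989) lay 18616 bp upstream of the gene of the calcium pump SERCA2 and held GATA and NKX2 strings. The *Ryr2* peak (490 tags, chr13:12133610-12133758) lay 26665 bp upstream of the gene of the calcium release channel, and a second of 293 tags with GATA lay in an intron. *Hcn4*, the gene of the pacemaker channel, had a peak of 428 tags with GATA and NKX2 strings 20377 bp upstream and one of 206 tags in an intron. *Nppb*, which encodes brain natriuretic peptide, was the nearest gene of 3 peaks between 16223 and 21829 bp upstream, with 382, 227 and 247.5 tags. The last held a TEAD string. The *Asph* peak (333.5 tags), in the gene whose products include junctin, was intronic.

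Among sarcomere genes, the *Myl3* peak (581 tags, chr9:110781493-110781641) lay 13058 bp from the TSS of the gene of the ventricular essential light chain, was CpG-rich and held CTCF and SP/KLF. The *Myl2* peak (237 tags) held CTCF, and the *Ttn* peak (245.5 tags) was intronic. *Smyd1* itself held a strong far peak of 339.5 tags in an intron at chr6:71227257-71227405, which is 1 of 2 gained peaks in that gene. The WT-enriched list held 0 there. This list of gained sites gives no check of the knockout itself.

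Among signalling genes, *Smad7*, an inhibitor of TGFβ and BMP signals, was nearest to peaks of 633.5, 409, 391.5 and 207 tags, the first CpG-rich and the highest of all 74. Those of 409 and 391.5 tags were 120118 and 127990 bp from its TSS. Both lay in an intron of *Ctif*, with a noncoding TSS closer by. The *Igf2* peak (630 tags, chr7:142611195-142611343) lay in an intron of a noncoding gene 41687 bp from the TSS of that growth factor gene. Peaks named for *Wnt11*, a noncanonical WNT ligand gene (469 tags), *Hey1*, a NOTCH target (454.5), and *Smad6*, a BMP inhibitor (441.5), held none of the 4 motifs. Those of *Hey1* and *Smad6* lay 50371 and 44752 bp from that TSS, each with a noncoding TSS closer by. The 2 peaks whose nearest protein-coding TSS was that of *Bmp7*, at 221.5 and 214 tags, lay 108746 and 108092 bp from it and within 1 kb of each other, and each held a CTCF match without mismatch. Of endothelial and stress genes, intronic peaks of *Egln3*, a HIF prolyl hydroxylase gene (528 tags), and of the glucose transporter gene *Slc2a3* (357.5) also held none of the 4. The same was true of intergenic peaks 74465 bp from the TSS of *Sox17* (368 tags), 118683 bp from that of *Klf4* (367.5) and 119682 bp from that of *Hif1a* (368), each with a noncoding TSS closer by. The peaks of *Slc2a3*, *Sox17* and *Klf4* were CpG-rich. Lower in score, peaks 18253 bp from the TSS of *Ddit4* (279 tags) and 57669 bp from that of the glucose transporter gene *Slc2a1* (251) held GATA, and one 72781 bp from that of *Cdh5*, the gene of VE-cadherin (233), held TEAD. The *Slc2a1* and *Cdh5* peaks also had a noncoding TSS closer by. In *Erg*, an endothelial factor gene, an intronic peak of 245.5 tags held MEF2.

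**Figure D5:**
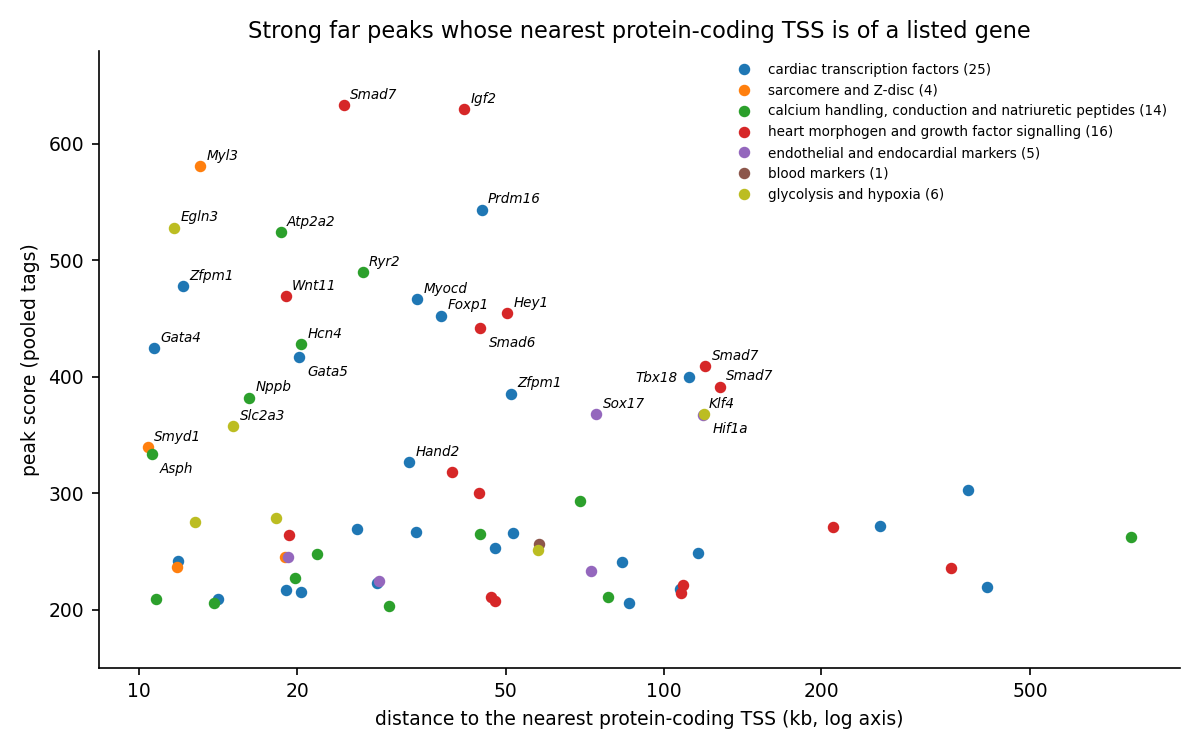
Score (y axis, pooled tags) and distance to the nearest protein-coding TSS (x axis, kb, log axis) of 71 of the 74 strong far peaks whose nearest protein-coding TSS is of a listed gene, coloured by the first list that holds the gene, with 28 of the 30 of highest score named. Most lie within 100 kb, and the peaks near *Smad7* (633.5 tags), *Igf2* (630) and *Myl3* (581) are the highest.

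Matches are printed for 6 of these peaks, chosen after their values were seen, to show each motif in a peak whose nearest protein-coding TSS is of a gene of known role. The *Hand1* peak lay 83305 bp from that TSS and the *Bmp7* peaks, as given above, over 100 kb. They are read as above, with the match in capitals. Both *Bmp7* matches lay on the plus strand.
Nppb TEAD (chr4:147963847-147963876, minus strand, 247.5 tags): cttcctggggtcACATTCCgcgctgaagag
Hand1 GATA (chr11:57916179-57916208, plus strand, 241 tags): gcctgtcaaatgAGATAAcctctcccaggg
Hcn4 GATA (chr9:58802925-58802954, minus strand, 428 tags): gccttgctctctAGATAAgagtcacacttc
Erg MEF2 (chr16:95439990-95440019, plus strand, 245.5 tags): aaagctccagTTATAAATAGctctgagagc
Bmp7 CTCF (chr2:172831264-172831293, plus strand, 221.5 tags): ccgttcatCCAGCAGAGGGCAGcagagagc
Bmp7 CTCF (chr2:172831949-172831978, plus strand, 214 tags): ctcaaccaCCAGCAGGGGGCGCctgtgacc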

How the data were processed

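Libraries of *Smyd1-KO* and WT hearts at E9.5 were used as 2 lists of peaks. The authors aligned reads to mm10 with BWA-MEM, called peaks with HOMER v4.10.3 and kept peaks that differed at least 2-fold. The header of their HOMER table of gained peaks names a combined set of tags per genotype, taken here as both libraries together. The deposited value is a signal, that table's total tags per 149 bp peak, in steps of 0.5. Whether it was scaled to a common total, and how duplicates, reads with several positions, the Tn5 offset and regions of known artifacts were treated, is not given in the sources used here, and each could change which peaks are listed. The peaks' start was taken as counted from 0, which was not tested and could be off by 1 base.

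Peaks were placed on GENCODE M21 and on the NCBI GRCm38 sequence with Python 3.11.15, numpy 2.4.6, pandas 2.3.3 and scipy 1.17.1. Distances ran from the nearer edge of the peak. Motifs were searched on both strands in the 149 bp. The CTCF, MEF2 and SRF patterns have 14, 10 and 10 letters, and CTCF allowed 1 mismatch. Shares were compared by Fisher's exact test, two-sided, with Benjamini-Hochberg adjustment over 15 motifs or 3 shares (intronic, CpG-rich and within 100 kb of a protein-coding TSS), and have 95% Clopper-Pearson intervals, which cover counting error only. The test of the share within 100 kb entered the adjustment but is not reported, since the rule used distances. A 32-base word that occurs more than once in the genome counted as repeated. The scripts were tested on simulated data. Named peaks are the 10 of highest score, the 30 of highest score near listed genes, the 3 on either side of the threshold, and up to 6 per printed motif. Peaks, members of the 9 lists and motifs were chosen with earlier results of these data known. Alternatives changed the score, distance, annotation, motif, GC, repeats and merging. A few matches and peaks that the naming rule covers are not reported here.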

Additional observations from a re-analysis of the deposited data

How the results depend on the processing

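The number of strong far peaks was 901 and became 2887 at a score of 100, 160 at 400, 1356 at 5 kb, 470 at 20 kb and 1427 when only protein-coding TSSs counted. Odds ratios of strong against weaker far peaks moved as follows. At a score of 100 they were 1.35 for CTCF, 0.947 for MEF2, 0.985 for GATA, 1.44 for YY1 and 1.10 for the intronic share, against 0.805, 1.08, 1.02, 0.988 and 0.942. At 400 they were 0.420 for CTCF (exact test, adjusted p = 0.0178), 0.767 for MEF2, 0.837 for GATA, 0.750 for TEAD, 0.455 for T-box, 0.743 for MEIS and 0.622 for the intronic share (adjusted p = 0.00492). At 5 kb they were 0.938 for GATA, 1.72 for YY1 and 0.856 for the intronic share (exact test, adjusted p = 0.00894), and at 20 kb 0.977 for GATA. With protein-coding TSSs only they were 0.752 for CTCF (exact test, adjusted p = 0.00359), 0.860 for GATA and 2.18 for YY1 (exact test, adjusted p = 0.0167). Within 40 to 60% GC, which left 620 strong and 6235 weaker far peaks, GATA was at 1.37 and passed the test. With 1 mismatch MEF2 was at 0.674, with the shorter string GGAATG TEAD was at 0.973, and without peaks rich in repeated words YY1 was at 1.01. The cause was not tested. The odds ratio of the CpG-rich share stayed between 18.1 and 28.6, and that of SP/KLF between 3.03 and 6.76, each past the threshold in 8 of 8 alternatives. None of these 8 held GC or CpG content fixed, so the part of base composition in the SP/KLF difference was not tested. AP-1 stayed between 0.413 and 0.727 and failed the test only at a score of 400 (0.472). HAND, which missed the threshold at 0.766, passed at scores of 100 (0.735) and 400 (0.450), at 5 kb (0.802), at 20 kb (0.577) and with protein-coding TSSs only (0.756). RUNX (0.630) and SOX (0.596) passed at 100, NKX2 at 400 (0.309), at 5 kb (0.707) and with protein-coding TSSs only (0.664), ETS at 100 (2.66) and with protein-coding TSSs only (2.71), and SRF at 400 (3.77) and at 5 kb (1.80). Leaving out CpG-rich peaks, an alternative added after seeing the data, gave 0.762 for CTCF, 1.23 for MEF2, 1.16 for GATA and 1.34 for TEAD, none past the threshold. At 50 and 200 kb, 50 and 94 listed genes had a strong far peak (18.3% and 34.4%), against 4.37% and 16.2% of all protein-coding genes. No paired analysis was possible because the lists hold no values per library, and for the same reason no library could be left out.

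The lists hold no replicate values, so no error between hearts stands behind any peak. Sites open in both genotypes were not used here, and a share in these peaks cannot be set against that of unchanged distal chromatin. A string match is not binding, and the nearest gene need not be the target. The lists do not show the depth reached per library.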
